A study of Mus musculus with 4 samples.

Results

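Aquaporins are membrane channels that carry water down osmotic gradients. The 9 aquaporin genes described here were chosen by name, Aqp1, Aqp2, Aqp3, Aqp4, Aqp5, Aqp7, Aqp8, Aqp9 and Aqp11, and all 9 were found among the 23242 rows of the expression table. RNA was sequenced from ventral and dorsal prostate lobes of 4 mice of the FVB strain, with 1 library per mouse. Mice 27 and 28 were wild type, with a negative ERG status in the labels. Mice 26 and 29 were homozygous for a TMPRSS2:ERG transgene and labelled ERG positive. That transgene is a bacterial artificial chromosome with the TMPRSS2 locus, into which exons of ERG, a human gene for a DNA-binding factor of the ETS family, were placed behind a GFP cassette flanked by loxP sites. Cre protein was injected into pronuclei of a line with high GFP, and the homozygotes come from 1 sub-line that passed on the fused transgene, so 1 sub-line stands for the genotype. The labels name no treatment and no age.

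Some aquaporins, such as Aqp1, Aqp2, Aqp4 and Aqp5, are mainly water channels. Aqp3, Aqp7 and Aqp9, the aquaglyceroporins, also carry glycerol and urea, Aqp8 also passes hydrogen peroxide and ammonia, and Aqp11 lies largely on intracellular membranes. In glands, water follows salt that ion channels and pumps move across the epithelium, and aquaporins in the apical or basolateral membrane set how freely it does so. Prostate lobes are secretory glands that add fluid to semen.

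Values are FPKM (fragments per kilobase of transcript, relative to all fragments of the library) divided by a library scaling factor, called scaled FPKM below. Fold changes are differences of log2(scaled FPKM + 1), homozygote minus wild type, which understates the change of low genes. A gene was called when limma, a linear model fitted over the 11762 genes whose mean reached 1 scaled FPKM, gave an adjusted p under 0.05. The step between the lowest values gives only a rough estimate of depth, similar in all 4 libraries, and 11541 to 11854 genes per library were at 1 FPKM or more. The prostate luminal gene Hoxb13 was present in every library, at 237 to 288 scaled FPKM. Seminal vesicle genes were present too: 5 of 7 tested markers were called lower in homozygotes, among them Svs1, a secretory protein gene of that gland, which was at 3421 and 236 scaled FPKM in the wild types (mice 27 and 28) against 3.83 and 1.05 in the homozygotes (mice 26 and 29). Without a filter on low values, and with a robust trend, 0 of these markers were called by limma (Svs1 adjusted p = 0.0634 and 0.164), and 3 were called on unscaled FPKM. The part of seminal vesicle tissue in the aquaporin differences was not tested. Values are given in this order of mice throughout, 27 then 28 and 26 then 29. With 2 mice per genotype, an exact permutation test over the 6 arrangements cannot give a two-sided p under 0.333.

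Aqp2 and Aqp5 stand next to each other on chromosome 15 (mm10), on the same strand, 6482 bases apart, with no other row of the table between them. Aqp6 follows 6570 bases further on. Sequences upstream of the RefSeq starts (RefSeq promoters, GRCm38.p6) are shown because these neighbours had differences of opposite sign between genotypes, and that of Aqp3 because it varied most between mice. For Aqp2 the 249 bases of chr15:99578806-99579054 and for Aqp3 the 250 bases of chr4:41098184-41098433 (minus strand) are given. For Aqp5 only the outer 30 bases of its window are given, chr15:99590778-99590807, the stretch farthest from the RefSeq start. GENCODE places 26 of them, with the marked letters, in a first exon of that gene. Capitals mark GGAAG or its reverse complement CTTCC, the string searched for as a site of ETS factors and called the ETS core below. Shorter matches, such as GGAA alone, were neither marked nor counted. Also in capitals is the TATA box core TATAA or its reverse complement TTATA.
Aqp2: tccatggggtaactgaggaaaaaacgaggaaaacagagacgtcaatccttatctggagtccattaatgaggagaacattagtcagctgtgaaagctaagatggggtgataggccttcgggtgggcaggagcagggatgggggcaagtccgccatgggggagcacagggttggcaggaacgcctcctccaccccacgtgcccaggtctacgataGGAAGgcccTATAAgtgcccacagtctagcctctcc
Aqp3: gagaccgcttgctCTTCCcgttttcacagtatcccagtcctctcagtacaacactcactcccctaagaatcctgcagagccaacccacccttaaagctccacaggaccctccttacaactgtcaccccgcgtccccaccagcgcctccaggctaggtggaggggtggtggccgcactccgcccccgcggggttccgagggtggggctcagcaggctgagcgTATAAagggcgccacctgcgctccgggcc
Aqp5: ccggagagggaCTTCCagagctcggtgcga

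Each of these genes held the ETS core in the 250 bases upstream of its RefSeq start, and Aqp2 and Aqp3, but not Aqp5, held the TATA box core. GENCODE starts Aqp5 at base 99590782, near the outer end of that window. By that annotation most of the Aqp5 window lies within the gene, unlike those of Aqp2 and Aqp3. Of all 32851 promoter windows of that length, 64.1% held the ETS core and 22.8% the TATA box core on either strand. A GC content of 78.4% set the Aqp5 window apart from those of Aqp2 (55.6%) and Aqp3 (64.0%), and 98.1% of all windows had less. A promoter sequence was found for 8 of the 9 aquaporins, in 10 windows, and 7 of those 8 held the ETS core in at least 1 window. Aqp9 held it in only 1 of its windows, and Aqp7 in none. This count by gene is not comparable with the 64.1% above, which is a share of single windows. These matches describe letters in a window and say nothing of binding.

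Of the 9 aquaporins, 6 passed the filter on low values and were tested, Aqp1, Aqp2, Aqp3, Aqp5, Aqp9 and Aqp11. Among them 1 was called higher in homozygotes, Aqp5, where 4.65% of all tested genes were, and 0 were called lower by limma, where 3.0% of all tested genes were. At an unadjusted p under 0.05, 2 were lower, Aqp1 and Aqp2. The share of all tested genes at that level was not computed, so this count has no background. The same holds for the counts at that level given for lists below. The authors' deposited table has q-values under 0.05 for the rise of Aqp5 and for lower values of Aqp2 and Aqp3, where it calls 7.04% of its genes higher and 7.1% lower. The genotypes did not overlap in 4 of the 6 tested aquaporins, Aqp5 above and Aqp1, Aqp2 and Aqp9 below, while 25.3% of tested genes were apart upward and 25.8% downward. The 3 untested aquaporins, Aqp4, Aqp7 and Aqp8, were each below both wild-type values in both homozygous mice. Their means were under 1 scaled FPKM, and the share of such low genes with genotypes apart was not computed. The median log2 fold change was -0.34 over the 6 tested aquaporins and -0.003 over all tested genes. Without scaling, 73.0% of all calls were rises, against 60.8% with it.

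**Figure D1:**
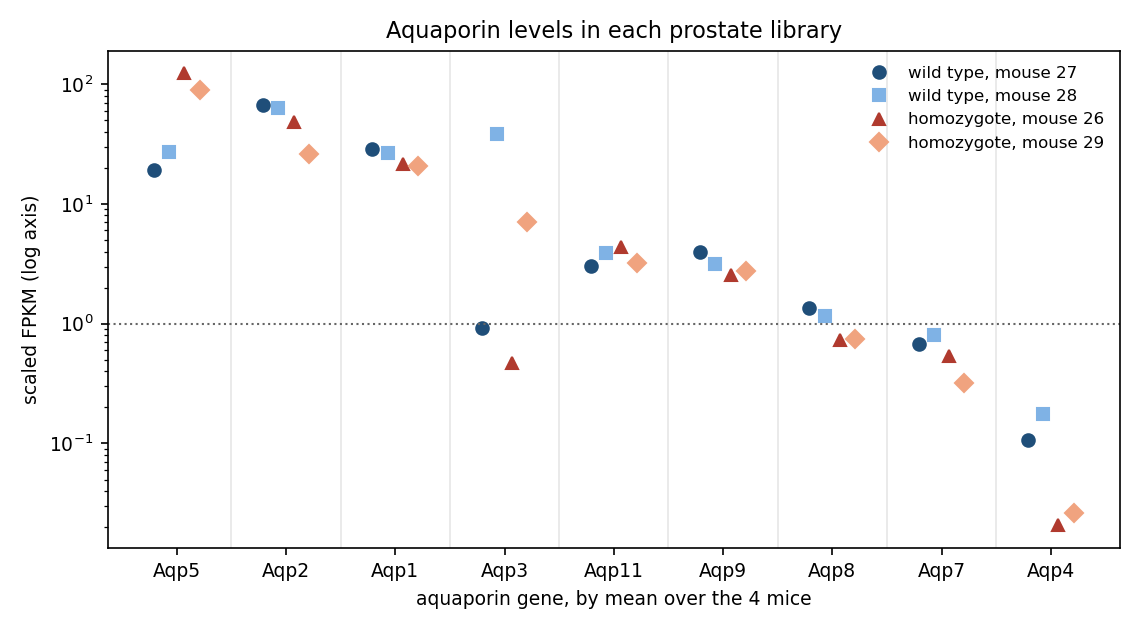
Scaled FPKM (log axis) of the 9 aquaporins in each of the 4 libraries, 1 point per mouse, ordered by mean, with a dotted line at 1. Aqp5 is the only member whose homozygote points (122.9 and 88.7) lie above both wild types, and the Aqp3 points of mice 28 and 29 lie far above those of mice 27 and 26.

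Aqp5, the apical water channel of salivary, lacrimal and airway glands (Entrez 11830, chromosome 15, 99591028 to 99594829), was at 19.0 and 27.1 scaled FPKM in the wild types (mice 27 and 28) against 122.9 and 88.7 in the homozygotes (mice 26 and 29). Both homozygotes were well above both wild types, and the gap between genotypes was wider than that within either. Group means were 23.0 ± 5.69 (SD, n = 2) for the wild types and 105.8 ± 24.2 (SD, n = 2) for the homozygotes, a 4.59-fold ratio. On the log2 scale Aqp5 rose by 2.15 (SE 0.225, limma adjusted p = 0.00566). Only 76 of the tested genes had a log2 fold change at least as large, Aqp5 included. The call held in all 12 alternatives run, and without 1 mouse at a time the log2 fold change lay between 1.91 and 2.40. Of 8 luminal epithelial markers, 1 was called, Epcam, an epithelial adhesion gene, at 263 and 245 scaled FPKM in the wild types against 442 and 437 in the homozygotes (0.79 in log2 units, SE 0.145, limma adjusted p = 0.0328), and the list's median was 0.07. Their summed level was 1611 to 1796 in wild type and 1868 to 1904 in homozygotes, and their part in the Aqp5 values was not tested. The Epcam call was lost without mouse 28, 26 or 29 (limma adjusted p = 0.0572, 0.310 and 0.248) and without a filter on low values (0.0642). Fewer cells of a type and less RNA per cell cannot be told apart in these bulk samples.

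Aqp2, the vasopressin-regulated water channel of the kidney collecting duct (Entrez 11827, chromosome 15, 99579056 to 99584545), was at 66.9 and 63.5 scaled FPKM in the wild types against 48.7 and 25.9 in the homozygotes. Wild types lay close together and above both homozygotes, which differed 1.88-fold from each other. Its means were 65.2 ± 2.46 (SD, n = 2) and 37.3 ± 16.1 (SD, n = 2), and its log2 fold change of -0.86 (SE 0.284) did not pass (limma adjusted p = 0.159). Without mouse 26 it was -1.30 and passed (limma adjusted p = 0.0158), and without mouse 29 it was -0.41 (limma adjusted p = 0.505). The authors' deposited table puts Aqp2 at -0.77 on the log2 scale, with a q-value of 9.08e-04. Of the kidney markers none passed the filter on low values, and Slc12a1 and Nphs1 were listed at 0 in every library. Of 10 epididymis and vas deferens markers, 2 were tested: Crisp1, at 537 to 938 scaled FPKM and not called, and Defb2, which rose by 1.83 (SE 0.167, limma adjusted p = 0.00352). Adam7 was at 1.84 and 1.01 scaled FPKM in the wild types and 0.0197 and 0.155 in the homozygotes, lower in both homozygotes, and was not tested. Both homozygote values of Adam7 lay far under 1 scaled FPKM, so their order between mice 26 and 29 cannot be set beside that of Aqp2. The other 7 markers stayed at or under 0.121, and by q-value 1 marker is higher and 1 lower in the authors' deposited table. Their summed level was 647 to 947 in wild type and 566 to 718 in homozygotes, and their part in the Aqp2 values was not tested.

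Within each library the ratio of Aqp5 to Aqp2 does not depend on scaling. It was 0.284 and 0.426 in the wild types against 2.53 and 3.43 in the homozygotes. Aqp2 was thus the highest aquaporin in both wild types and Aqp5 in both homozygotes, and Aqp5 ranked the third in each wild type. Aqp6, the next gene on the chromosome, stayed between 0.0113 and 0.120 scaled FPKM and was not tested. Within 150 kb of the 3 genes, 6 other genes were tested, and 1 was called, Lass5, a ceramide synthase gene, which rose by 0.63 (SE 0.102, limma adjusted p = 0.0227). This neighbourhood was chosen after the values were seen.

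**Figure D2:**
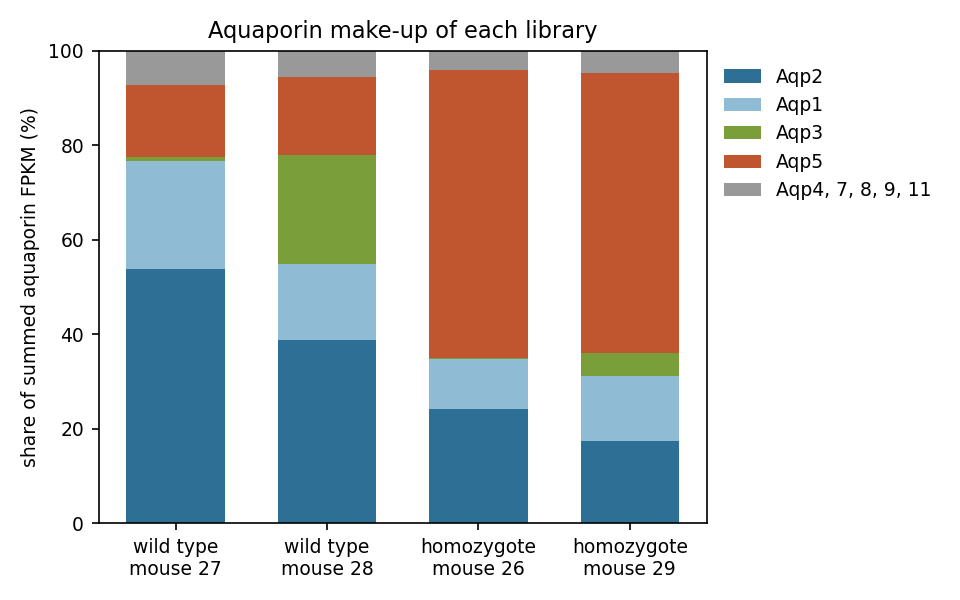
Share of each library's summed aquaporin FPKM (percent, 0 to 100) held by Aqp2, Aqp1, Aqp3, Aqp5 and the other 5 members together, 1 bar per mouse. Aqp5 holds 60.9% and 59.3% in mice 26 and 29, against 15.3% and 16.5% in mice 27 and 28.

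Over all 9 members the summed level was 115 and 169 FPKM before scaling in the wild types and 204 and 156 in the homozygotes, so the sums of the genotypes overlapped. Aqp2 made up 53.7% and 38.7% of the sum in the wild types and 24.1% and 17.3% in the homozygotes. Aqp3 gave 23.1% in mouse 28 and 0.745% in mouse 27.

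Aqp1, the constitutive water channel of endothelium and red blood cells (Entrez 11826, chromosome 6, 55336299 to 55348555), was at 28.6 and 26.4 scaled FPKM in the wild types against 21.5 and 20.8 in the homozygotes. Replicates were close in both genotypes, and wild types lay above homozygotes. The difference of -0.36 on the log2 scale (SE 0.104) did not pass (limma adjusted p = 0.115), and it passed without mouse 28 (limma adjusted p = 0.0456, log2 fold change -0.42). Endothelial markers had a median of -0.15, with 9 of 10 below 0 and 0 of 10 called by limma (3 at an unadjusted p under 0.05, and 1 higher in the authors' deposited table). Pecam1, an endothelial adhesion gene, was at 10.5 and 11.1 scaled FPKM in the wild types against 9.06 and 9.13 in the homozygotes. Plvap, a gene of fenestrated endothelium, overlapped between genotypes, at 9.68 and 10.9 against 9.36 and 11.2, and Egfl7, an endothelial growth factor-like gene chosen after its values were seen, had a log2 fold change of 0.34 (limma adjusted p = 0.147). The summed endothelial level was 53.2 to 55.9 in wild type and 47.6 to 51.9 in homozygotes. Of 8 red blood cell markers 4 were tested, each with a log2 fold change below 0, and 3 are lower in the authors' deposited table by q-value, with a summed level of 509 to 687 in wild type and 294 to 352 in homozygotes. Among them Alas2, the erythroid heme synthesis gene, was called, at -0.78 (SE 0.161, limma adjusted p = 0.0476), a call lost without mouse 26 or 29 (limma adjusted p = 0.163 and 0.223), on unscaled FPKM (0.0580), with quantile normalization (0.0801), without a filter (0.114) and without the trend (0.0526). The median of the 4 tested red blood cell markers was -0.89, with -0.67 without mouse 27 and -1.11 without mouse 28. Slc4a1 and Epb4.2 were at or near 0. The globin genes Hba-a1 and Hba-a2 are near-identical copies whose split is uncertain. Smooth muscle markers had 7 of 7 log2 fold changes below 0, with a median of -0.57. Limma called 0 of them, and 0 are called in the authors' deposited table. At an unadjusted p under 0.05 there were 6, a count without a background. With quantile normalization 2 of the 7 markers were called lower. The smooth muscle median was -0.40 without mouse 27 and -0.78 without mouse 28. Of 6 Schwann cell and nerve markers 4 were tested, with a median of -0.49 (-0.73 without mouse 27 and -0.18 without mouse 28). Limma called 0 of them, 2 were at an unadjusted p under 0.05, and 1 is lower in the authors' deposited table. The part of these cell types in the Aqp1 values was not tested.

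Aqp8 (Entrez 11833, chromosome 7, 123462294 to 123468003) was at 1.34 and 1.16 scaled FPKM in the wild types against 0.728 and 0.740 in the homozygotes, a mean of 0.993, just under the filter. Its genotypes were apart, with wild types 1.71-fold higher. Fitted without a filter, its log2 fold change of -0.38 had a limma adjusted p = 0.107. Aqp4, the water channel of astrocytes and skeletal muscle (Entrez 11829, chromosome 18), was at 0.107 and 0.176 scaled FPKM in the wild types against 0.0208 and 0.0262 in the homozygotes. These values rest on few fragments, by a rough estimate about 20.6 and 43.5 in the wild types and 5.04 and 6.56 in the homozygotes, and an antisense gene overlaps Aqp4 in GENCODE, so reads of the opposite strand cannot be told apart without strand. No call was made for Aqp4 in any fit, and without a filter its limma adjusted p was 0.123. Skeletal muscle markers were 2 tested of 8, Acta1 and Ckm, neither called by limma (0 at an unadjusted p under 0.05, and 2 of the 8 lower in the authors' deposited table), with a summed level of 125 to 199 in wild type and 105 to 124 in homozygotes, and their part in the Aqp4 values was not tested.

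Among the aquaglyceroporins, Aqp3 varied most. Aqp3, the basolateral channel of collecting duct and of stratified and urothelial epithelia (Entrez 11828, chromosome 4, 41092724 to 41098183), was at 0.929 and 38.0 scaled FPKM in the wild types (mice 27 and 28) against 0.468 and 7.07 in the homozygotes (mice 26 and 29). Mice 28 and 29 were high and mice 27 and 26 low, so the genotypes overlapped: wild types differed 40.9-fold and homozygotes 15.1-fold. Its log2 fold change of -1.33 (SE 1.49) did not pass (limma adjusted p = 0.702). Without mouse 27 it was -3.52 and passed (limma adjusted p = 0.0178), and without mouse 28 its sign turned, to 0.83 (limma adjusted p = 0.581). The authors' deposited table puts Aqp3 at -2.47 on the log2 scale, and lists its q-value at 0. On the log2 scale mouse 28 was 4.34 above mouse 27 and mouse 29 was 2.46 above mouse 26, while the median absolute gap over all tested genes was 0.183 and 0.106 for these pairs. Only 7 tested genes had a wider gap between the wild types.

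A gap of at least 2 in both pairs, 28 over 27 and 29 over 26, was shared by 5 of the 11762 tested genes: Aqp3, Upk3a, Sprr1a, 1110032A04Rik and Gm9846. By Euclidean distance between mean-centred log2 values over the 4 libraries, the tested gene most like Aqp3 was Upk3a, a uroplakin gene of the urothelial plaque (distance 0.241), followed by 1110032A04Rik (0.379) and Sprr1a, a cornified envelope gene of squamous epithelium (0.687). Upk3a was at 1.91 and 51.7 scaled FPKM in the wild types (mice 27 and 28) against 1.31 and 12.7 in the homozygotes (mice 26 and 29), so it was high and low in the same mice as Aqp3. Upk2, also a uroplakin gene, was the fourth in likeness, at 4.62 and 42.9 in the wild types (mice 27 and 28) against 2.64 and 9.93 in the homozygotes (mice 26 and 29). Slc14a1, a urea transporter gene, ranked 11th, at 0.190 and 5.40 in the wild types (mice 27 and 28) against 0.168 and 1.12 in the homozygotes (mice 26 and 29). These likenesses rest on 4 libraries and were looked up after the Aqp3 values were seen.

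**Figure D3:**
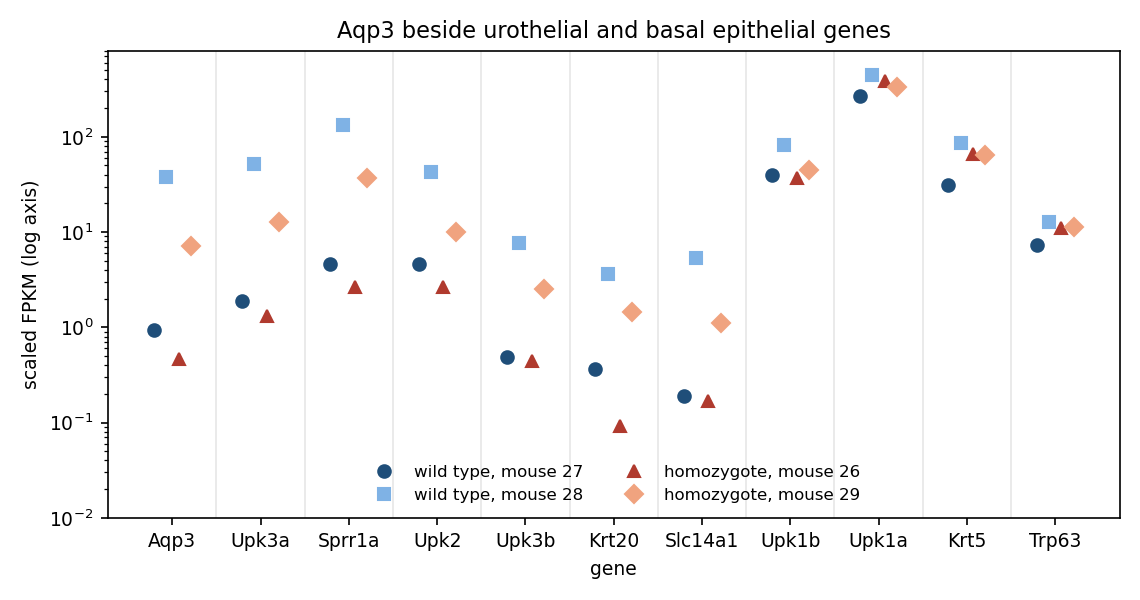
Scaled FPKM (log axis) of Aqp3, of the urothelial genes Upk3a, Upk2, Upk3b, Krt20, Upk1b and Upk1a, of Sprr1a and Slc14a1, and of the basal epithelial genes Krt5 and Trp63, 1 point per mouse. Aqp3 and Upk3a share the order of mice 28, 29, 27 and 26, and Upk1a does not. Of the basal genes shown, Krt5 is lower and Trp63 higher in mouse 29 than in mouse 26.

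Of the urothelial list, 6 of 6 genes were tested and 0 called by limma (0 at an unadjusted p under 0.05, and 5 lower in the authors' deposited table). Without mouse 27 the median log2 fold change of the list was -1.74, and without mouse 28 it turned to 0.43. Upk3a, Upk2, Upk3b, Krt20 and Upk1b were each highest in mouse 28 and next in mouse 29. Upk1a was far less uneven, at 266 and 445 scaled FPKM in the wild types against 389 and 331 in the homozygotes. The summed urothelial level was 313 to 632 in wild type and 402 to 430 in homozygotes, most of it Upk1a. Aqp3 is also made in basal epithelium, and all 7 basal epithelial genes were higher in mouse 28 than in mouse 27, as Aqp3 was. The share of all tested genes with that order was not computed. In mouse 29, Krt5, Krt14, Krt15 and Col17a1 were lower than in mouse 26, unlike Aqp3, while Trp63, Itgb4 and Dst were higher. In likeness to Aqp3, Krt5 ranked 207th and Trp63 860th, and of the urothelial list Upk1b ranked 110th and Upk1a 1067th. Krt5 was at 31.5 and 87.1 in the wild types against 66.0 and 64.4 in the homozygotes, and Trp63 ranged from 7.31 to 12.7. Of the 7 basal genes, 0 were called by limma (1 at an unadjusted p under 0.05, 0 in the authors' deposited table). Without mouse 28 the median of the basal genes was 0.64, and without mouse 27 it turned to -0.16. The part of urothelium and of basal epithelium in the Aqp3 values was not tested.

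Aqp7, the glycerol channel of adipocytes (Entrez 11832, chromosome 4, 41033074 to 41048136), lies next to Aqp3, 44587 bases away with no row between them. It was at 0.673 and 0.812 scaled FPKM in the wild types against 0.542 and 0.319 in the homozygotes, under the filter, with both wild types above both homozygotes. It did not share the high values of Aqp3 in mouse 29, where it was lowest. Without a filter its log2 fold change of -0.29 had a limma adjusted p = 0.237. Of 7 adipocyte markers, 0 were called by limma (0 at an unadjusted p under 0.05, 0 in the authors' deposited table), and their summed level was 232 to 336 in wild type and 213 to 269 in homozygotes. Fabp4, a fatty acid carrier gene, was at 157 and 124 scaled FPKM in the wild types against 112 and 100.5 in the homozygotes, without overlap. In the other 6 markers the genotypes overlapped, as in Cfd, an adipocyte protease gene, at 96.4 and 63.0 in the wild types against 96.2 and 70.4 in the homozygotes. The adipocyte median was -0.24 with all 4 mice, 0.14 without mouse 27 and -0.62 without mouse 28. The part of adipocytes in the Aqp7 values was not tested.

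Aqp9, an aquaglyceroporin known from liver, epididymis and leukocytes (Entrez 64008, chromosome 9, 71110661 to 71163289), was at 3.96 and 3.15 scaled FPKM in the wild types against 2.57 and 2.74 in the homozygotes. Wild types lay above homozygotes by less than 1 scaled FPKM at their nearest. The log2 fold change was -0.31 (SE 0.135) and did not pass (limma adjusted p = 0.270), and it stayed below 0 in every alternative that gave a value. GENCODE places an antisense gene and a pseudogene on the other strand, overlapping it. Of 4 tested macrophage and neutrophil markers 1 was called, the endotoxin receptor gene Cd14, which rose by 1.64 (limma adjusted p = 9.86e-04). The list's median was 0.29, with 2 at an unadjusted p under 0.05 and 1 higher in the authors' deposited table. Cd68, a macrophage gene, was at 4.15 and 3.12 scaled FPKM in the wild types against 5.86 and 5.52 in the homozygotes. It had a log2 fold change of 0.54 and was not called (limma adjusted p = 0.0965). Csf1r and Emr1, also macrophage genes, had log2 fold changes of -0.02 and 0.05, and Mpo was at or near 0. Most of the difference in the summed level of these markers was Cd14. The sum was 18.3 to 22.1 in wild type and 37.9 to 38.9 in homozygotes, and their part in the Aqp9 values was not tested.

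Aqp11 (Entrez 66333, chromosome 7, 97726379 to 97738247) was at 3.06 and 3.92 scaled FPKM in the wild types against 4.39 and 3.22 in the homozygotes. Its genotypes overlapped, and the log2 difference of 0.09 (SE 0.172, limma adjusted p = 0.831) turned sign without mouse 27 and without mouse 26. By mean level over all 4 mice, both genotypes pooled, the members ran Aqp5, Aqp2, Aqp1, Aqp3, Aqp11, Aqp9, Aqp8, Aqp7 and Aqp4, and the place of Aqp3 rests on mouse 28. Within wild types Aqp1 and Aqp5 met at 26.4 and 27.1 in mouse 28, and the values of Aqp9 and Aqp11 overlapped, while in homozygotes both Aqp11 values lay above both of Aqp9. The family genes outside these 9, Mip, Aqp6 and Aqp12, were each at 0.120 scaled FPKM or less, with Aqp12 listed at 0 in every library.

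**Figure D4:**
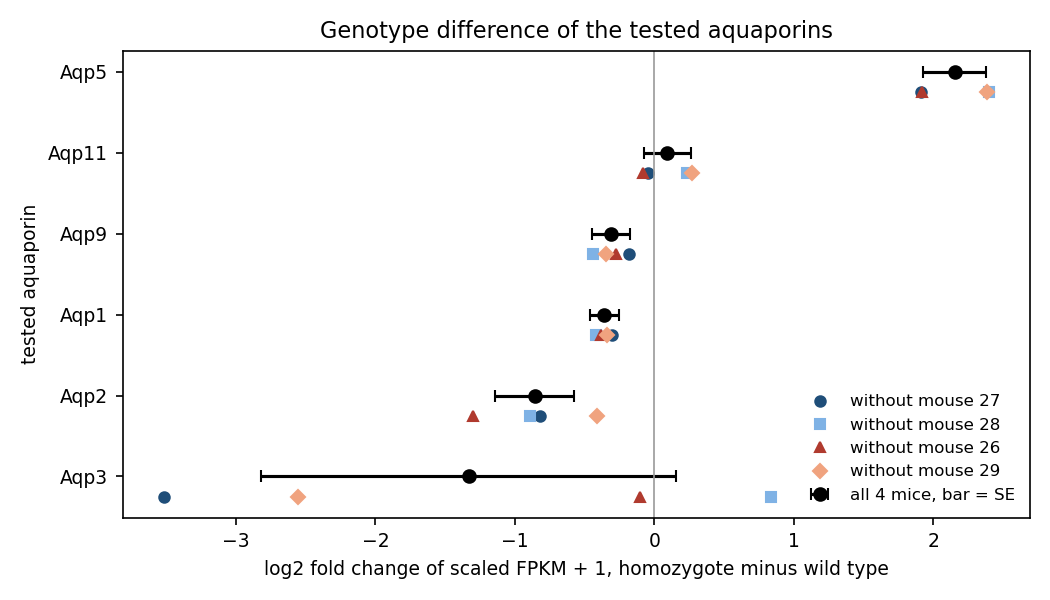
Log2 fold change of scaled FPKM + 1 (homozygote minus wild type) for the 6 tested aquaporins, with the SE from all 4 mice as bars, and the values without each mouse as coloured points. Aqp5 stays between 1.91 and 2.40, Aqp3 runs from -3.52 to 0.83, and Aqp2 from -1.30 to -0.41.

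Genes that move the salt that water follows were read from lists. In chloride and fluid secretion, 7 of 14 genes were tested, 2 rose and 1 fell, with a median of 0.58. The authors' deposited table has 3 of the 14 higher and 2 lower. Kcnn4, a calcium-activated potassium channel that sustains secretion, was at 12.6 and 19.7 scaled FPKM in the wild types against 70.0 and 70.7 in the homozygotes, a rise of 2.09 (SE 0.205, limma adjusted p = 0.00448). Slc26a4, the chloride and bicarbonate exchanger pendrin, was at 47.3 and 59.2 in the wild types against 12.3 and 11.0 in the homozygotes, so that it fell by 2.09 in log2 units (SE 0.143, limma adjusted p = 0.00140). Kcnn4 and Slc26a4 separated the genotypes without overlap, in opposite directions, and kept their calls in all 11 refits. Kcnq1, also a potassium channel, rose by 0.90 (SE 0.174, limma adjusted p = 0.0395), a call lost without mouse 26 or 29 (limma adjusted p = 0.143 and 0.142), on unscaled FPKM (0.0792), with quantile normalization (0.0503) and without a filter (0.0919). Cftr, the cyclic AMP-gated chloride channel, was at 0.124 to 0.202 scaled FPKM and was not tested.

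In sodium uptake and the sodium pump, 17 of 18 genes were tested, 1 rose and 2 fell, with a median of -0.22. Without mouse 27, 6 were called lower, without mouse 28, 4 were, and the authors' deposited table has 1 higher and 5 lower. Slc9a2, a sodium and proton exchanger, was at 82.2 and 75.2 scaled FPKM in the wild types against 34.1 and 32.9 in the homozygotes (-1.21 in log2 units, SE 0.110, limma adjusted p = 0.00352). The sodium pump regulators of the Fxyd family went both ways: Fxyd5 rose by 1.04 (SE 0.114, limma adjusted p = 0.00661), and Fxyd2 fell by 1.17 (SE 0.241, limma adjusted p = 0.0466). Without mouse 26 the calls of Fxyd5 (limma adjusted p = 0.0560) and Fxyd2 (0.0586) were lost, and without mouse 29 that of Fxyd2 (0.151). The Fxyd2 call was also lost on unscaled FPKM (limma adjusted p = 0.0946), with quantile normalization (0.0583) and without a filter (0.111).

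**Figure D5:**
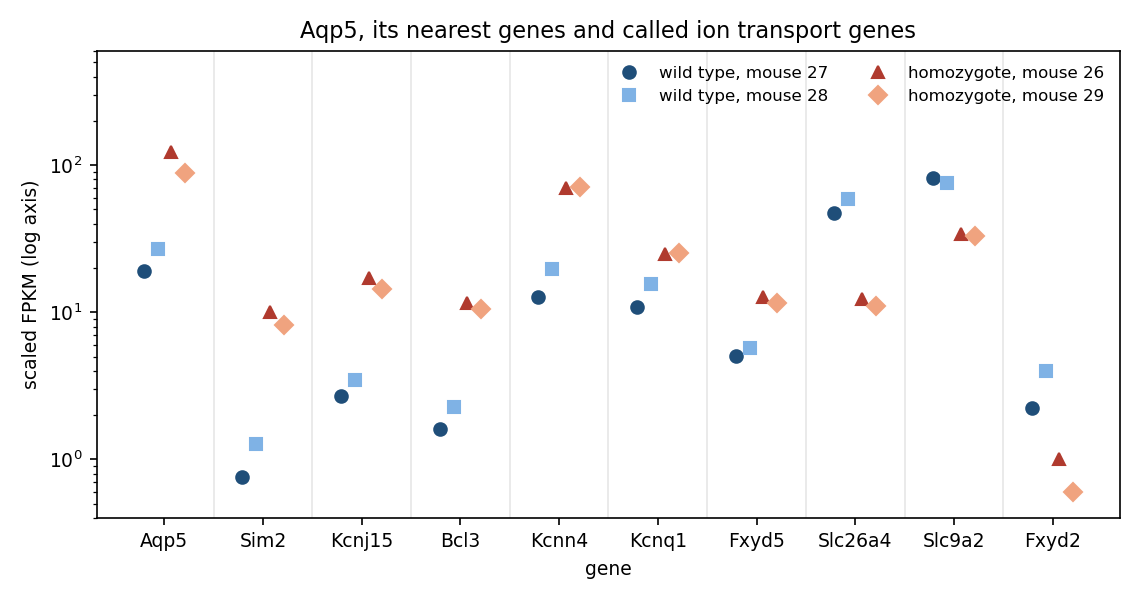
Scaled FPKM (log axis) of Aqp5, the 3 tested genes most like it (Sim2, Kcnj15, Bcl3) and the called ion transport genes, 1 point per mouse. Aqp5, Sim2, Kcnj15, Bcl3, Kcnn4, Kcnq1 and Fxyd5 are higher in both homozygotes, and Slc26a4, Slc9a2 and Fxyd2 lower.

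By the same Euclidean distance, the 3 tested genes most like Aqp5 were Sim2, a bHLH-PAS transcription factor gene (distance 0.241), Kcnj15, an inwardly rectifying potassium channel gene (0.244), and Bcl3, an IkB-family nuclear regulator gene (0.280). Sim2 was at 0.761 and 1.27 scaled FPKM in the wild types against 10.1 and 8.16 in the homozygotes. Kcnj15 was at 2.69 and 3.46 in the wild types against 17.2 and 14.3 in the homozygotes. Kcnn4 of the secretion list ranked the eighth of all tested genes by this distance (0.356). With 2 mice per genotype, this distance mainly finds genes whose genotype difference is close to that of Aqp5. The rank of Kcnn4 thus restates its rise given above and shows no link to Aqp5.

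The vasopressin, cAMP and aquaporin trafficking list, which holds the kinase path that moves Aqp2 to the membrane in kidney, had 17 tested of 20 genes, 0 risen and 1 fallen, with a median of -0.08. The fallen gene was Prkar2b, a regulatory subunit of protein kinase A, at 8.04 and 7.38 scaled FPKM in the wild types against 4.50 and 4.63 in the homozygotes (-0.65 in log2 units, SE 0.108, limma adjusted p = 0.0256), a call lost without mouse 26 or 29 (limma adjusted p = 0.236 and 0.179), on unscaled FPKM (0.0600) and without a filter (0.0626). Without mouse 27, 5 genes of this list were called lower and 1 higher. Avpr2, the vasopressin receptor gene of the collecting duct, was at 0.519 and 0.455 scaled FPKM in the wild types against 0.0785 and 0.234 in the homozygotes and was not tested. In osmotic stress and osmolyte uptake, 0 of 14 tested genes were called by limma (2 at an unadjusted p under 0.05, and 1 lower in the authors' deposited table). The median of that list was -0.13, with -0.29 without mouse 27 and -0.03 without mouse 28. The list's most abundant members, the aldose reductase gene Akr1b3 and the kinase gene Sgk1, had log2 fold changes of -0.16 and -0.57.

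For the solutes that aquaglyceroporins carry, the glycerol and lipid droplet list had 13 tested of 15 genes, 0 risen and 2 fallen, with a median of -0.19. Dgat2, which makes triglyceride, was at 26.8 and 27.2 scaled FPKM in the wild types against 12.7 and 11.2 in the homozygotes (-1.11 in log2 units, SE 0.108, limma adjusted p = 0.00439). Mgll, which releases glycerol from monoglyceride, fell by 0.91 (SE 0.125, limma adjusted p = 0.0137), a call lost without mouse 26 or 29 (limma adjusted p = 0.0813 and 0.0870). The median of this list was -0.07 without mouse 27 and -0.28 without mouse 28. By q-value, the authors' deposited table has 1 gene of it higher and 2 lower. In urea and nitrogen solute transport, 1 of 4 tested genes rose and 0 fell, with a median of -0.27. The authors' deposited table has 1 higher and 1 lower. The risen gene was the urea-forming arginase gene Arg1 (1.22 in log2 units, SE 0.199, limma adjusted p = 0.0230). Its call was lost without mouse 26 and without a filter (limma adjusted p = 0.0718 without a filter). Rhbg was at 2.99 and 3.71 scaled FPKM in the wild types against 2.15 and 1.61 in the homozygotes. Its log2 fold change of -0.60 did not pass (limma adjusted p = 0.0883). In hydrogen peroxide production and removal, 0 of 10 tested genes were called by limma (3 at an unadjusted p under 0.05, and 1 higher in the authors' deposited table), with a median of 0.16. Of these, 1 was called higher on unscaled FPKM, with a minimum mean of 5 and with a robust trend. The list's median was 0.26 without mouse 27 and 0.001 without mouse 28.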

How the data were processed

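TopHat 1.3 and Cufflinks 1.3 with build mm10 are listed in the submitters' processing notes, without roles. Annotation and strand handling were not given in the sources used here. Per gene and mouse, the deposited table holds 1 FPKM value, a unit read from the values, and the authors' own fold change (a score that reads as log2) with a p-value and q-value, per the file headers. The value 99999, found in 7 genes and no aquaporin, was read as a code and treated as missing. Starts were raised by 1.

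FPKM was divided by median-of-ratios factors (0.921, 1.03, 1.01 and 1.04 for mice 27, 28, 26 and 29). Log2(scaled FPKM + 1) of genes with a mean of at least 1 and no missing value went into limma 3.58.1 (R 4.3.3, moderated two-sided test with a mean-variance trend, Benjamini-Hochberg adjustment, threshold 0.05). The residual degrees of freedom were 2, with 3.62 more from the prior. The script was tested on simulated data. The members and lists were chosen with earlier results of these data known. Named genes are the 9 members, up to 4 called genes per list by size of change (else the 2 most abundant) and the 3 genes most like a called member. Others, among them Hoxb13, Slc14a1, Cftr, Avpr2, Lass5 and the genes like Aqp3, were chosen after their values were seen. Alternatives were other scalings, pseudocounts, filters and trends, each mouse left out, and the authors' calls.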

Additional observations from a re-analysis of the deposited data

How the results depend on the processing

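No paired analysis was possible because each number in the labels belongs to 1 mouse and none is shared between genotypes. The count of aquaporins called higher, 1, was the same in all 12 alternatives, and that gene was Aqp5 each time. The count called lower, 0, ranged from 0 to 1 without 1 mouse at a time (Aqp3 without mouse 27, Aqp1 without mouse 28, Aqp2 without mouse 26) and was 2 in the authors' deposited table. The number of genes called among all tested, 900, ranged from 355 (without mouse 26) to 2028 (without mouse 27) and was 2034 in the authors' deposited table. With a mouse left out, the lone library of its genotype is assumed to vary like the other genotype. Without 1 mouse at a time, the log2 fold change of Aqp3 ranged from -3.52 to 0.83 and that of Aqp11 from -0.081 to 0.27 (-0.05 without mouse 27), each with a turn of sign. The cause was not tested. With a pseudocount of 0.1 the differences of the low members grew, to -0.95 for Aqp4, -0.70 for Aqp7 and -0.69 for Aqp8. At a minimum mean of 5, Aqp9 and Aqp11 were not tested. With FPKM no count model was run, and 2 mice per genotype limit every comparison. The limma p-values set the genotype difference against the spread of these 4 mice within their genotypes, moderated over all tested genes. This describes limma only, not the authors' deposited q-values.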
